A study of Mus musculus with 16 samples.

Results

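The Hsd3b genes of mouse chromosome 3 encode hydroxysteroid dehydrogenases, a family of steroid-metabolizing enzymes that arose by repeated duplication. DNase I hypersensitive sites (DHS, stretches of open chromatin that the nuclease cuts readily) were examined here within 20 kb of 5 of them, Hsd3b1, Hsd3b2, Hsd3b3, Hsd3b5 and Hsd3b6, in liver from both sexes of 2 inbred mouse strains. The peaks of 4 deposited lists that overlapped a gene or its 20-kb flanks were joined into regions wherever they shared at least 1 bp, which gave 16 regions out of 51482 in the whole data set. The strains were C57BL/6J (B6), the source of the reference genome, and CAST/EiJ (CAST), inbred from wild-caught mice of a different subspecies. All mice were 8 weeks old, none was treated or carried an engineered allele, and every sample of liver nuclei was digested with 32 U of DNase I. Each sex and strain had 4 libraries, 16 in all, but each group is represented by a single list (male B6, female B6, male CAST and female CAST), so no spread between mice can be given and no test was made. The lists are named as merged and were read here as pools of the 4 libraries, but the peaks of each list carry the number of 1 mouse in their names, and whether a value stands for 4 mice or for 1 cannot be settled from the files. Intervals given below cover the counting of reads in 1 list only, and since reads that were amplified together are not independent molecules, they are too narrow as a measure of biological error.

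Enzymes of this family fall into 2 functional classes. The dehydrogenase and isomerase class, to which Hsd3b1, Hsd3b2, Hsd3b3 and Hsd3b6 belong, converts early precursors into active steroids: Hsd3b1 is the form of the gonads and adrenal cortex, Hsd3b6 is known from adrenal, skin and testis, and Hsd3b2 and Hsd3b3 are known from liver and kidney. The ketosteroid reductase class, to which Hsd3b5 belongs, inactivates steroids, and Hsd3b5 is a well-known male-predominant gene of the adult mouse liver. Sex differences of mouse liver are set largely by the pituitary pattern of growth hormone release, which acts through the transcription factor STAT5, and CUX2 is a repressor found mainly in female liver.

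All 5 genes lie on the minus strand of chromosome 3 (mm9), so upstream means a higher coordinate. From low to high coordinate the order was Hsd3b5 (98422559 to 98434232), Hsd3b2 (98513178 to 98528499), Hsd3b3 (98545399 to 98567051), Hsd3b6 (98609427 to 98618366) and Hsd3b1 (98656117 to 98663717). Their longest annotated coding sequences were each 1122 nt. Hsd3b2, Hsd3b3 and Hsd3b6 were the most alike, with 94.4 to 95.1% identity between pairs, and each had 89.3 to 90.0% identity with Hsd3b1. Hsd3b5 stood apart from these, at 79.9 to 82.3% identity. It was closest to 3 neighbouring genes outside the set, Hsd3b4 and Gm10681 (95.2% each) and Gm4450 (95%).

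The 7 stretches of the mm9 plus strand shown here are the DHS closest to each gene's start site and those with the highest fold enrichment and the largest differences between the sexes in either direction. These rankings use fold enrichment over the local background. A measure over the genome-wide background, given below, ranked the female side otherwise. Each is centred on a peak summit, and the capitals mark matches to the motifs described next.
Hsd3b5, 0.4 kb inside the gene, chr3:98433675-98433974: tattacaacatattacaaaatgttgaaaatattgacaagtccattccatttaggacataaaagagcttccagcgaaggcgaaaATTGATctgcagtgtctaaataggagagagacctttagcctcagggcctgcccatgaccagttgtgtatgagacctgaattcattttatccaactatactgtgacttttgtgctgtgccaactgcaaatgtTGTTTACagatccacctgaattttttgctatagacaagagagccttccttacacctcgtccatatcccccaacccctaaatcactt
Hsd3b2, 3.7 kb inside the gene, chr3:98524605-98524904: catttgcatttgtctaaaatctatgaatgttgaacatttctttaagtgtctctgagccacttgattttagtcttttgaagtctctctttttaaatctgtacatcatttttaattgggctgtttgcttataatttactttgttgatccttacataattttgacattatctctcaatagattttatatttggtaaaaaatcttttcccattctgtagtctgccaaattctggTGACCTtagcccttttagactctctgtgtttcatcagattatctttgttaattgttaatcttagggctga
Hsd3b3, 10.7 kb inside the gene, highest fold enrichment, chr3:98556159-98556458: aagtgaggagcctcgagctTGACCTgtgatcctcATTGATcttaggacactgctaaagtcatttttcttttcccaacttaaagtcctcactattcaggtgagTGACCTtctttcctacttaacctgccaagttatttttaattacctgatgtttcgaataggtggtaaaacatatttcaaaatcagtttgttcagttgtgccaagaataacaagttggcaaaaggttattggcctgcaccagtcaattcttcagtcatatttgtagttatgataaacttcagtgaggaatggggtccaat
Hsd3b3, 6.0 kb inside the gene, highest female-to-male ratio, chr3:98560936-98561235: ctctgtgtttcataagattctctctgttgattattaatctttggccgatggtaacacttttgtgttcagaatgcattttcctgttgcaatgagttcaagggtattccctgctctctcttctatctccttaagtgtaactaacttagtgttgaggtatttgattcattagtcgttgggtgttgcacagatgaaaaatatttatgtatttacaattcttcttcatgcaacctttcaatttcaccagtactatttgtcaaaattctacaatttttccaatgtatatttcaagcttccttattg
Hsd3b3, 1.1 kb upstream, chr3:98568030-98568329: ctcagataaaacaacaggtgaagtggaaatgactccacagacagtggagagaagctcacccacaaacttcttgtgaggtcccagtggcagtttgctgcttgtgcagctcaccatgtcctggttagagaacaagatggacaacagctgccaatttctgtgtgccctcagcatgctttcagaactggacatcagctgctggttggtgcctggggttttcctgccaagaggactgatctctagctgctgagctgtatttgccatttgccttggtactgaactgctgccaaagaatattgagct
Hsd3b3, 23.6 kb upstream and the DHS closest to Hsd3b6, chr3:98590530-98590829: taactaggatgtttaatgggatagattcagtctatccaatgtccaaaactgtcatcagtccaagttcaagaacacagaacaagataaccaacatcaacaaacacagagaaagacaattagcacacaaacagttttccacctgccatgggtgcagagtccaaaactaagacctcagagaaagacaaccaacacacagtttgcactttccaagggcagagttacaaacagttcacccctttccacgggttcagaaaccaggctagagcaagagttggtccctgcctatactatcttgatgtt
Hsd3b1, start site, without the annotated untranslated part, chr3:98663718-98663994: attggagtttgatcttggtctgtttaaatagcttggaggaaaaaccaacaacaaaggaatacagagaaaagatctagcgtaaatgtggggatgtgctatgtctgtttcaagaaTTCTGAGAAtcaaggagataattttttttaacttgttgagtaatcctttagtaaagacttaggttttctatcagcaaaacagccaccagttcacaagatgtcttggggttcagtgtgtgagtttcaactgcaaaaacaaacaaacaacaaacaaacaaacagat
Motifs were searched on both strands in the 300 bases around the summit of each region, as exact letters taken from the known sites of liver factors. A STAT motif (TTCNNNGAA) was present in 3 of the 16 windows, at the Hsd3b1 start site, 5.9 kb inside Hsd3b1 and 19.1 kb upstream of Hsd3b3, against 10.2% of all 51482 windows. The core ATTGAT of the CUX and HNF6 factors was present in 4 of 16 (13% of all windows), and one of those was the DHS at the start of Hsd3b5, which also held the only FOXA motif (TGTTTAC, 6.59% of all windows). The nuclear receptor motif AGGTCA was present in 3 of 16 (26.0% of all). No window held ATCGAT (1.85% of all), the HNF4A motif CAAAGTCCA (1.67%) or the C/EBP motif TTGCNNCAA (2.64%). With 16 windows these counts are descriptions and say nothing of binding.

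**Figure D1:**
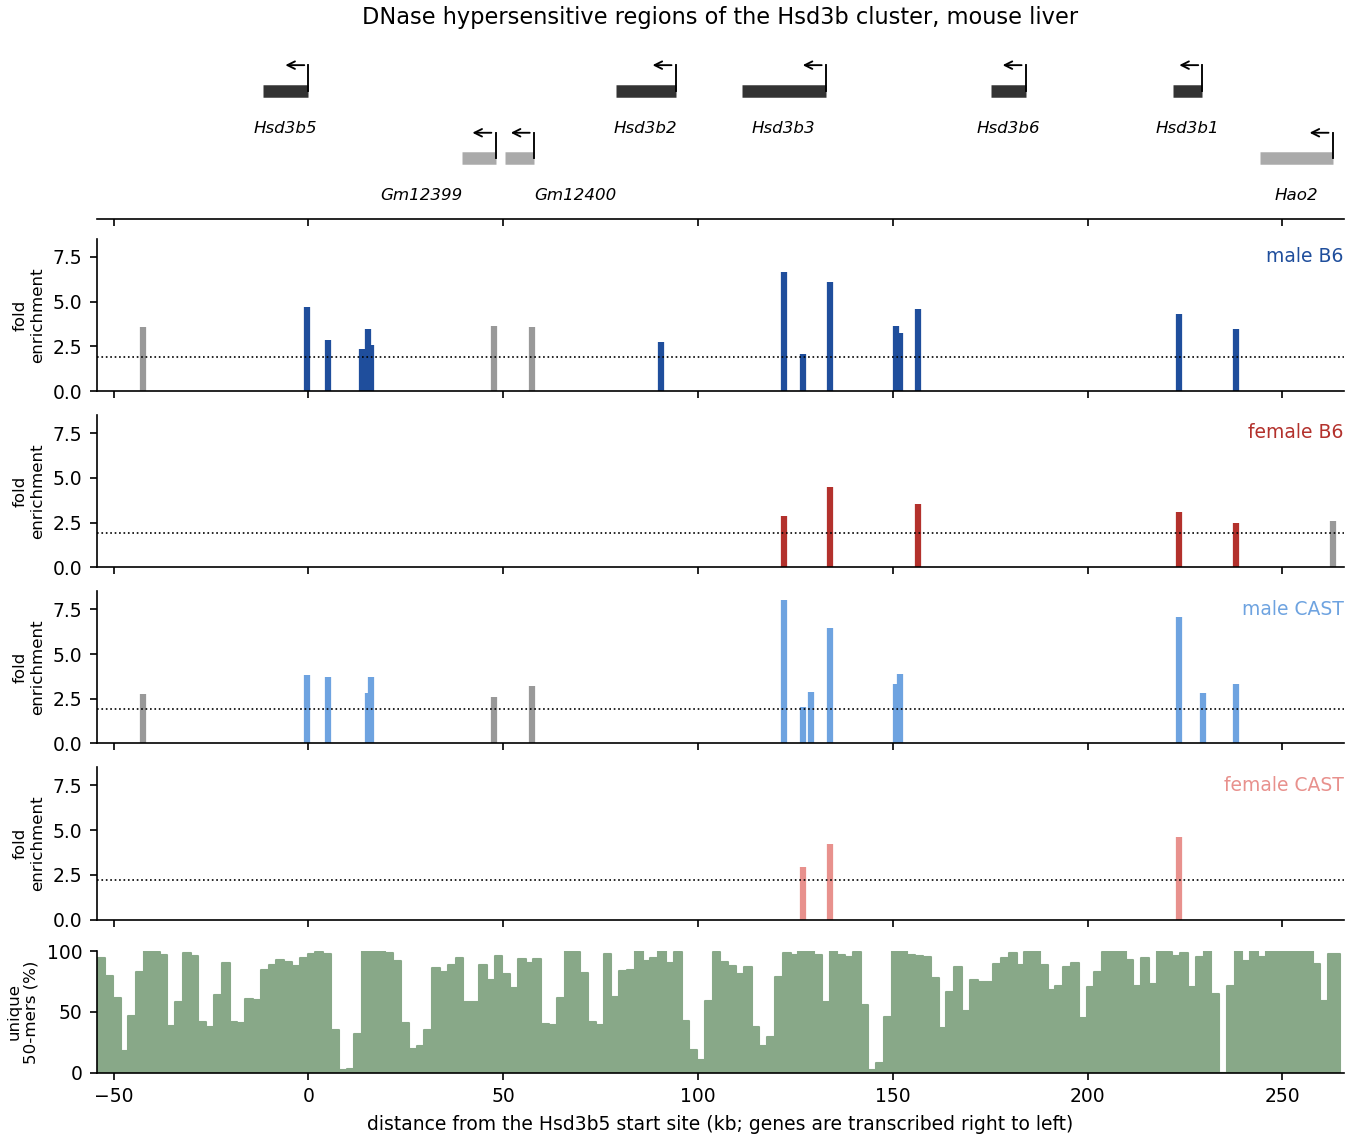
Fold enrichment (vertical bars, one row per list) of DHS across the cluster against distance from the Hsd3b5 start site in kb, with genes above and the share of 50-base words that occur once in the genome below (green). Coloured bars are the 16 regions, grey bars are regions over 20 kb from the 5 genes, and dotted lines are the lowest fold enrichment that a list holds at its background; the block around Hsd3b5 has bars in the male rows only.

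Fold enrichment, the authors' ratio of the reads stacked at a peak's summit to the local background, was the measure compared. Peaks were called over input DNA per the study's methods, but whether an input library was used for these DNase lists is not settled by the files, so what the background was counted from is open to doubt. The data were described first by presence in a list. The 14 regions of B6 males and 5 of B6 females, and the 13 of CAST males and 3 of CAST females, gave male-to-female ratios of 2.80 in B6 and 4.33 in CAST, against 1.49 and 1.61 over all regions. The summed width of the peaks was 8771 and 2449 bp for males and females of B6, and 7876 and 1634 bp for those of CAST, ratios of 3.58 and 4.82 where all peaks gave 1.60 and 1.78. Of the 16 regions, 6 were in both male lists and neither female list, compared with 9.38% of all regions. In B6, 9 of the 14 regions found in either sex were in the male list alone (36.4% of all regions found in either B6 list), and in CAST 10 of 13 were (40.3%). None was in a female list alone (5.13% of all regions in B6 and 3.90% in CAST). Only 2 of the 16, 1.1 kb upstream of Hsd3b3 and 5.9 kb inside Hsd3b1, were in all 4 lists, against 35.6% of all regions.

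Background and list length were lower in the females of both strains, and their part in the counts above was not tested. The genome-wide background was 15.4 reads for B6 males and 13.9 for B6 females, 14.3 for CAST males and 7.94 for CAST females, and a peak at that background needed at least 30, 28, 28 and 19 stacked reads to be listed, which is a fold enrichment of 1.90, 1.94, 1.90 and 2.24. Over the whole genome, regions with low male values were often missing from the female list: among all male B6 regions under a fold enrichment of 3, 75.9% were absent from female B6, from 3 to 4 it was 34.5%, and from 4 upwards 5.59%. In these same 3 ranges, 5 of 5, 3 of 4 and 1 of 5 Hsd3b regions were absent. In CAST the shares for all regions were 83.3%, 49.1% and 8.49%, and 3 of 4, 6 of 6 and 1 of 3 Hsd3b regions were absent. When each list was cut to the 24888 peaks with the best q values, the size of the shortest list, the regions in both male lists and neither female list fell from 6 to 2, which was 16.7% of the 12 regions left against 2.29% of all regions. The male-to-female ratio of region counts then fell from 2.80 to 1.8 in B6 (1.01 over all regions) and from 4.33 to 2.33 in CAST (1.02).

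**Figure D2:**
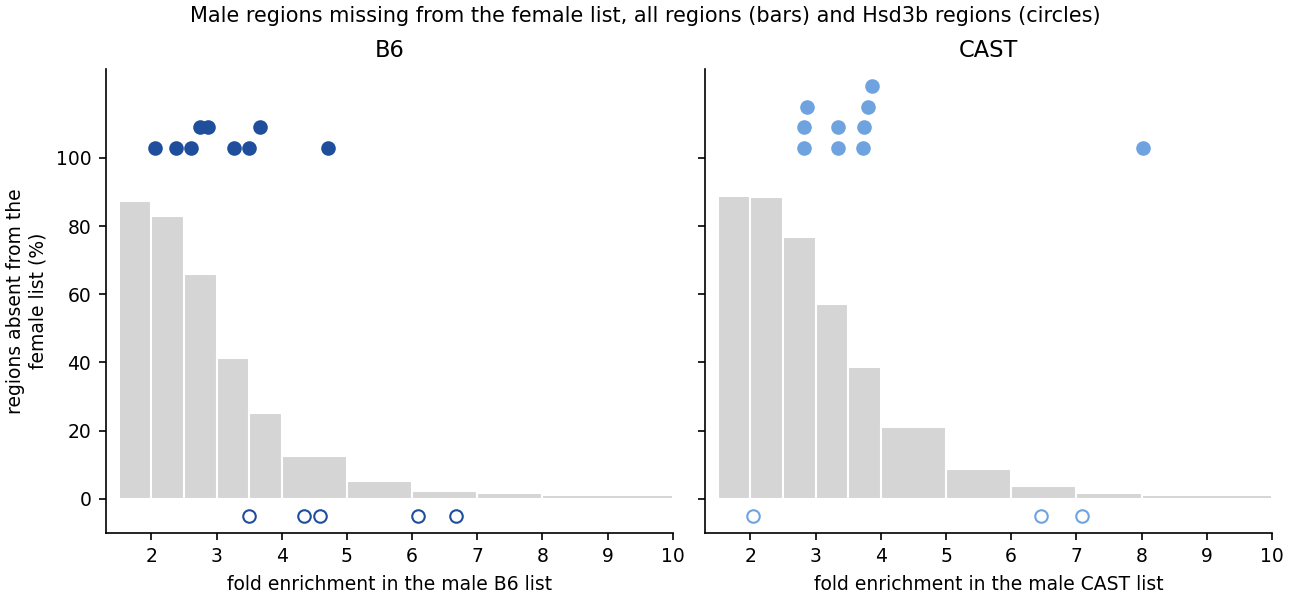
Share of all male regions that were absent from the female list of the same strain (bars, %) by fold enrichment in the male list, with each Hsd3b region as a circle placed at its own fold enrichment, filled above the bars when it was absent and open below when it was present. Circles at similar values are stacked; the filled circle at 4.71 in B6 and that at 8.03 in CAST lie where bars are low.

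Hsd3b5 had the most uniform pattern. All 5 of its regions were in male B6, 4 were in male CAST, and none was in either female list. The DHS at its 5′ end (chr3:98433350-98434062) overlapped a coding exon, its edge 170 bp from the annotated start site and its summit 407 bp inside the gene. It had a fold enrichment of 4.71 in male B6, from 76 reads (95% interval 59.9 to 95.1). In male CAST it had 3.80, from 57 reads (43.2 to 73.9). Both are above the level a female list would have needed: 4.71 is 2.42 times the lowest value listed at the female B6 background and 3.80 is 1.70 times that of female CAST. After centring these became 1.84 and 1.43 times, under the 2-fold level. Of the 12425 male B6 regions at or above 4.71, 387 were absent from female B6 (3.11%). Of the 19325 male CAST regions at or above 3.80, 2001 were absent from female CAST (10.4%). Both shares include much stronger regions. Among male B6 regions from 4 to 5, 12.4% were absent from female B6. Among male CAST regions from 3.5 to 4, 38.7% were absent from female CAST.

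The other 4 Hsd3b5 regions were intergenic and lay upstream. The region 5.1 kb upstream (chr3:98438867-98439533) had 2.87 in male B6 and 3.74 in male CAST. A group of 3 followed further upstream, at 13.9 kb (2.38 in male B6 and not listed in male CAST), 15.2 kb (3.50 and 2.82) and 16 kb (2.60 and 3.73). The order of the strains changed from one region to the next, and at none of the 4 Hsd3b5 regions that both male lists shared did the interval of the strain difference leave 0. Between 8.91% and 28.9% of all male B6 regions at or above these values were absent from female B6. For the 3 regions in male CAST between 10.9% and 24.5% were absent from female CAST. Nearer these values the shares were higher. In B6, 83.1% were absent from 2 to 2.5 and 25.3% from 3.5 to 4. In CAST, 76.9% were absent from 2.5 to 3 and 38.7% from 3.5 to 4. After centring, the 4 regions were only 0.930 to 1.37 times the lowest value listed at the female B6 background. The 3 in CAST were 1.06 to 1.40 times that of female CAST.

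The DHS at the start of Hsd3b5 was one of a set of copies. A search of the cluster with its sequence found copies of 700 to 703 bp at 3 places that held a DHS as well: an intergenic stretch 42.4 kb downstream (87.8% identity), the start of the pseudogene Gm12399 (86.0%) and the 5′ part of the pseudogene Gm12400 (84.4%). These 3 lie over 20 kb from the 5 genes and were picked after their values had been seen. Fold enrichment at the intergenic copy was 3.61 in male B6 and 2.75 in male CAST. At Gm12399 it was 3.67 and 2.62, and at Gm12400 3.61 and 3.21. None of the 3 was in a female list, a pattern that 9.38% of all regions had. In male B6, 7.73% to 8.23% of all regions at or above these values were absent from female B6. In male CAST 17.6% to 29.2% were absent from female CAST. Among male B6 regions from 3.5 to 4, 25.3% were absent from female B6. Among male CAST regions 76.9% from 2.5 to 3 and 57.1% from 3 to 3.5 were absent from female CAST. After centring, the CAST values were only 0.986 to 1.21 times the lowest that female CAST lists at its background, so lower levels in CAST females could not be detected there. Further copies at the starts of Hsd3b4 and Gm10681 (86.6% each) and of Gm4450 (86.0%) had no DHS in any list. Short reads could be placed in part of the last and almost nowhere in the first 2, since the authors kept uniquely mapped reads only and 0%, 2.56% and 37.1% of the 50-base words within 1 kb of the Hsd3b4, Gm10681 and Gm4450 starts occur once in mm9. For Hsd3b4 and Gm10681 nothing can be said of openness from these lists.

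Hsd3b2, like Hsd3b6, had a single region, and that of Hsd3b2 was in a single list. No DHS lay within 1 kb of its start site, although 99.1% of the 50-base words there are unique. The region, in an intron 3.7 kb inside the gene (chr3:98524635-98525114), had a fold enrichment of 2.75 in male B6 and was in no other list. Of all male B6 regions from 2.5 to 3, 66.0% were absent from female B6. Of those at or above 2.75, 11.1% were absent from male CAST. After centring, 2.75 was only 1.07 times the lowest value listed at the female B6 background. The sequence of this region matched that of the region 6.0 kb inside Hsd3b3, with 88.5% identity over 486 bp.

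Within 20 kb of Hsd3b3 lay 6 regions, and the strongest of them was the strongest of the 16 in both male lists. This region (chr3:98555993-98556869), in an intron 10.7 kb from the main start site and 1079 bp inside another annotated transcript start of the gene, had a fold enrichment of 6.67 for B6 males, 2.88 for B6 females and 8.03 for CAST males, and was not listed in female CAST. The reads at the summit were 133 (111 to 158), 42 (30.3 to 56.8) and 143 (121 to 168). Its summits in the 3 lists lay within 5 bp of each other, while the peak was 849 bp wide for B6 males, 854 bp for CAST males and 339 bp for B6 females. After the median of all regions in both B6 lists was subtracted (0.40 on the log2 scale), males were higher by 0.81 (counting interval 0.31 to 1.31), 1.76-fold, a difference that placed the region at the 99.5th percentile of 23644 shared regions. It did not reach the 2-fold level, which 0.186% of shared B6 regions and 0.255% of shared CAST regions reached on the male side and none of the 5 and 3 Hsd3b regions shared by the sexes did. In CAST the male value was 3.59 times the lowest value listed at the female background, 3.02 times after centring, and of 4657 male CAST regions at or above 8.03 only 39 were absent from female CAST (0.837%). Males were thus higher in B6 and female CAST held no peak there.

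The stretches of Hsd3b6 and Hsd3b2 that resembled the Hsd3b3 region 10.7 kb inside the gene had no DHS. The sequence of this region had 85.4% identity with a 602-bp stretch of Hsd3b6 and 79.6% with a 622-bp stretch of Hsd3b2, and 99.6% and 100% of the 50-base words in these stretches are unique in mm9, so reads could be placed there.

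The region 1.1 kb upstream of Hsd3b3 (chr3:98567795-98568733, intergenic) was open in all 4 lists, at 6.09 for males and 4.49 for females of B6, and 6.45 for males and 4.25 for females of CAST. Raw values were higher in males of both strains, but the centred differences were 0.04 in B6 (-0.39 to 0.47) and 0.35 in CAST (-0.19 to 0.89), and neither interval left 0. This was the nearest DHS to the main Hsd3b3 start site, where 57.2% of 50-base words within 1 kb are unique.

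A pair of regions further upstream of Hsd3b3 followed the male pattern. At 17.9 kb (chr3:98584740-98585371) fold enrichment was 3.67 in male B6 and 3.34 in male CAST. At 19.1 kb (chr3:98585720-98586735), the widest of the 16 regions at 1016 bp, it was 3.27 and 3.87. Neither was in a female list. Of all male B6 regions from 3 to 3.5, 41.3% were absent from female B6, and from 3.5 to 4, 25.3%. In CAST the shares in these ranges were 57.1% and 38.7%. After centring, the 2 regions were 1.43 and 1.27 times the lowest value listed at the female B6 background. In CAST they were 1.26 and 1.45 times that of female CAST. Part of the first had 75.8% identity over 306 bp with the region 16 kb upstream of Hsd3b5, itself listed in males only, and another part had 73.5% identity over 215 bp with the region 1.1 kb upstream of Hsd3b3, which was in all 4 lists.

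The region 6.0 kb inside Hsd3b3 (chr3:98560776-98561300) was the only one of the 16 with a higher raw fold enrichment in a female list than in the male list of its strain. Its fold enrichment was 2.06 and 2.04 in B6 and CAST males and 2.96 in CAST females, and it was not listed in female B6. Of all male B6 regions from 2 to 2.5, 83.1% were absent from female B6. The centred difference in CAST was -0.79 (-1.46 to -0.12), so females were 1.73-fold higher. The local background there was 29.6 reads in male B6 and 27 in male CAST, near the 30 and 28 reads that a peak at the genome-wide background needed, against 8.12 in female CAST, and the summit held 62, 56 and 26 reads. Divided by the genome-wide background instead, the summit stood at 3.92 in male CAST and 3.27 in female CAST, a centred difference of -0.22, whose size is under the counting error. By that measure 2 Hsd3b1 regions in B6, 5.9 kb inside and 8.6 kb upstream, lay as low at -0.24 each. The region 3.9 kb inside the gene (chr3:98562974-98563630) had 2.86 in male CAST and was in no other list.

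Hsd3b6 had no DHS in its body or within 20 kb upstream in any list. Its start site lay 27.7 kb from the nearest summit, inside the longest stretch without a region between Hsd3b5 and Hsd3b1 (66.4 kb), although 98.9% of the 50-base words within 1 kb of its start and 91.7% of those in the gene are unique. The one region that the 20-kb flank of Hsd3b6 took in (chr3:98590229-98591125, intergenic, 23.6 kb upstream of Hsd3b3) was the clearest strain difference of the set. It had a fold enrichment of 4.58 in male B6 and 3.55 in female B6 and was in neither CAST list. The sexes did not differ by more than the counting error (centred difference -0.03, -0.53 to 0.46). Of 12970 male B6 regions at or above 4.58, 420 were absent from male CAST (3.24%), and of 11290 female B6 regions at or above 3.55, 557 were absent from female CAST (4.93%). CAST reads were mapped to a genome with CAST variants and placed back on mm9 coordinates, so a stretch that is missing or changed in CAST cannot be told apart from closed chromatin.

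Hsd3b1 had a DHS at its start site in male CAST only (chr3:98663688-98663949), with a fold enrichment of 2.82 from 42 reads. It overlapped an untranslated exon, and its summit lay 128 bp upstream of the start site. Of all male CAST regions at or above 2.82, 13.6% were absent from male B6 and 24.5% from female CAST. Of those from 2.5 to 3, 76.9% were absent from female CAST. The intronic region 5.9 kb inside the gene (chr3:98657487-98658063) was in all 4 lists, at 4.34 for males and 3.08 for females of B6, and 7.08 for males and 4.59 for females of CAST. Here CAST was higher than B6 in both sexes, by 0.63 in males on the centred log2 scale (B6 minus CAST, -0.63, interval -1.06 to -0.19) and with an interval that spans 0 in females (-0.33, -0.94 to 0.29). The sex differences were 0.09 in B6 and 0.38 in CAST, and neither interval left 0. The region 8.6 kb upstream (chr3:98672042-98672651) had 3.49 and 2.48 in B6 males and females and 3.34 in CAST males, and was not in female CAST. Of all male CAST regions from 3 to 3.5, 57.1% were absent from female CAST. Of all female B6 regions at or above 2.48, 18.8% were. After centring, 3.34 was only 1.26 times the lowest value listed at the female CAST background.

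**Figure D3:**
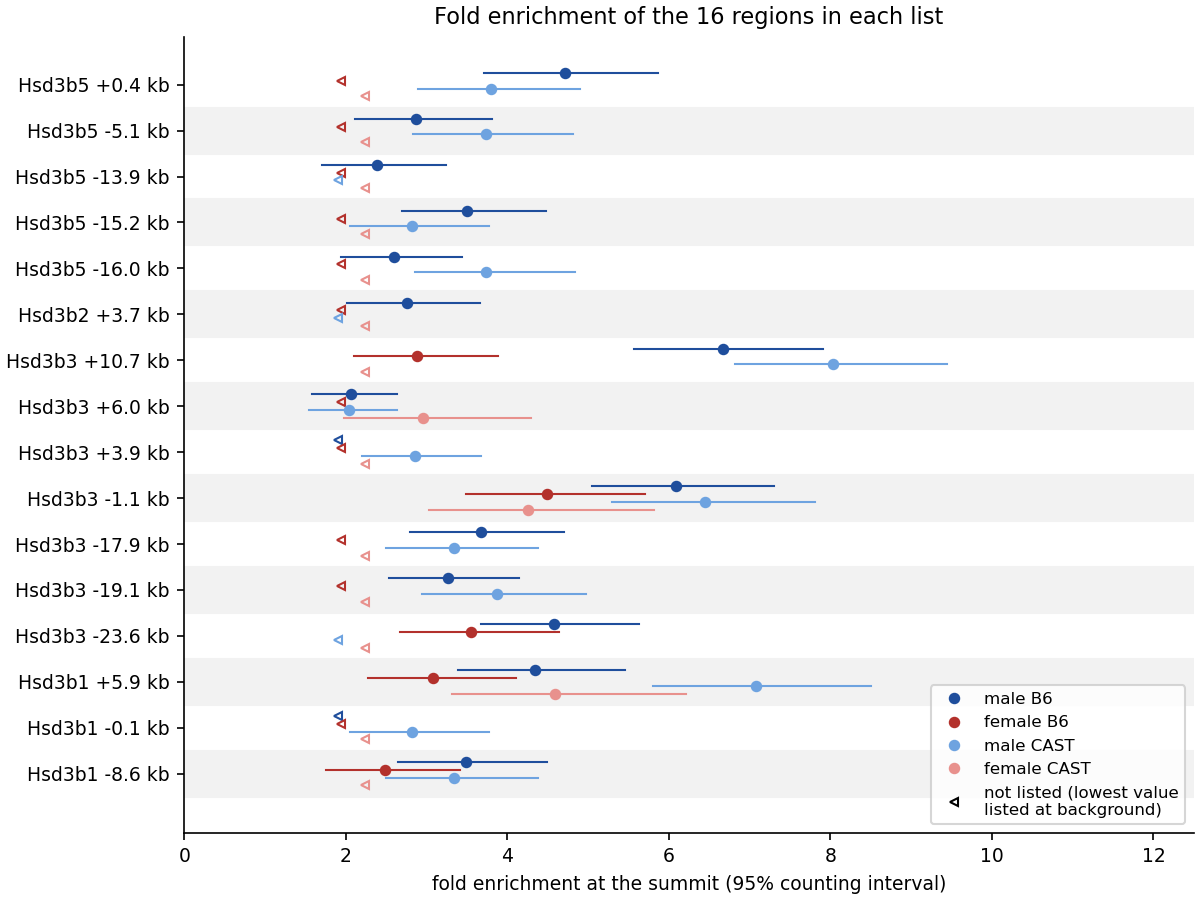
Fold enrichment of each of the 16 regions (rows, in order of coordinate; + inside and - upstream of the named gene's start) in the 4 lists, with the 95% counting interval. Open triangles mark lists without the region, placed at the lowest fold enrichment listed at background; the 5 Hsd3b5 rows have triangles for both female lists.

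Between strains, male values at shared regions lay close together. Both male lists held 11 regions, and their centred B6-to-CAST differences ran from -0.63 to 0.39 with a median of -0.01, 5 higher in B6 and 6 in CAST. The interval left 0 only at the intronic Hsd3b1 region, and over all 21 comparisons of shared values, between sexes or strains, it did so at 3. No difference between strains reached 2-fold, against 2.31% of shared regions in males and 1.10% in females. Of the 16 regions in a male list, 3 were in B6 alone (19.1% of all regions in a male list) and 2 in CAST alone (20.9%).

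**Figure D4:**
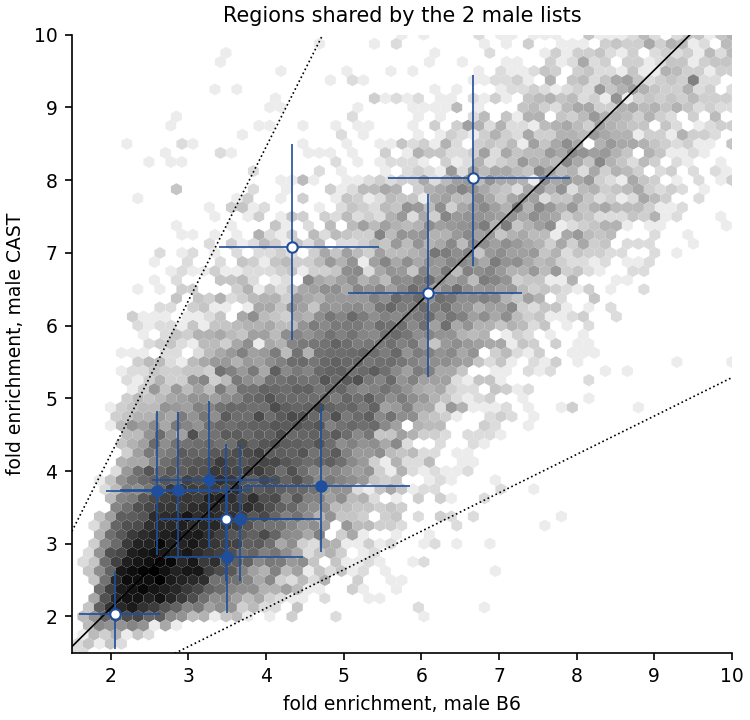
Fold enrichment in male B6 against male CAST for all regions in both lists (grey, darker with more regions) and the 11 Hsd3b regions with 95% counting intervals. Filled points are in no female list and open points in at least 1; the solid line is the median ratio and the dotted lines are 2-fold from it, and all 11 points lie between the dotted lines.

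The other genes of steroid metabolism were counted for the male pattern and for presence in all lists. The list held 16 genes, of which 14 were in the annotation. Hsd3b4 and Gm10681 had no region, and Gm4450 a single one at the edge of its flank in male B6 (3.18). The 11 genes elsewhere in the genome had 101 regions within 20 kb, 7 of them in both male lists and neither female list (6.93%, against 9.38% of all regions) and 40 in all 4 lists (39.6%, against 35.6%), with male-to-female ratios of 1.42 in B6 and 1.32 in CAST. Hsd3b7, a bile acid enzyme of the same family on chromosome 7, had 5 regions, 4 of them in all 4 lists, and its strongest was at 9.44 for males and 6.88 for females of B6, and 9.59 for males and 9.03 for females of CAST. Cyp7b1, a hydroxylase with male-predominant expression in mouse liver, had 13 regions, of which 2 had the male pattern and 4 were in all lists. Srd5a1, a steroid reductase, had 12, of which 1 had the male pattern. The strongest DHS of the whole list was also at Srd5a1, at 20.40 for males and 15.52 for females of B6, and 17.95 for males and 15.62 for females of CAST.

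Markers of liver cell types were checked at their start sites. Hepatocyte genes had a DHS within 1 kb of the start for 6 of 6 markers in male B6 and male CAST, 5 in female B6 and 4 in female CAST. None of the 4 Kupffer cell markers had one. Of 4 markers of sinusoidal endothelial cells, 4, 3, 2 and 1 had one in the same order of lists as above (male B6, female B6, male CAST, female CAST), of 4 bile duct markers 2, 1, 2 and 1, and of 4 stellate cell markers 1, 1, 1 and 0. Of 4 genes of steroid-producing cells of adrenal and gonad, only Nr5a1 in male CAST (2.32) did, and the part of other cells in the Hsd3b values was not tested. In whole liver, fewer cells with an open site and a less open site per cell cannot be told apart.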

How the data were processed

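DNase-seq of mouse liver nuclei was deposited as 4 lists of peaks, one for each sex and strain. Per the study's methods, 5 mice per group were prepared and 1 library per group was left out for quality. The authors mapped B6 reads to mm9 and CAST reads to mm9 carrying CAST variants with Bowtie2, kept uniquely mapped reads, called peaks with MACS2 and removed blacklisted regions and peaks made of duplicates. The methods state merging by sex and strain for browser tracks, the deposited lists are named as merged, and their peak names carry the number of a single mouse; they were treated as pools of a group's libraries. Tools and build are also named in the submitters' processing notes. The deposited columns hold a score, the ratio of summit pileup to background (fold enrichment) and −log10 p and q values; no read counts per library were used here. Depth was therefore read only from the lists, and the study's own sequencing totals were not used here. The summit pileup in whole reads was recovered from the deposited fold enrichment and −log10 p (whole within 0.02 for at least 99.9% of peaks of every list).

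Peaks of the 4 lists (38751, 26271, 39562 and 24888 in male B6, female B6, male CAST and female CAST) were joined at an overlap of 1 bp and assigned to genes with GENCODE vM1 on the matching mm9 genome. The highest fold enrichment of a region was used in each list. Log2 ratios between lists were centred on the median over all regions in both, and 2-fold was the level called. Intervals are exact Poisson 95% limits of the pileup, or the normal approximation for ratios, and cover counting error only. Words of 50 bases were counted in mm9 on both strands, and the DHS were compared with the cluster by blastn 2.17.0+. Python 3.11.15 with pandas 2.3.3 was used. Joining, centring, pileup recovery and word counting were tested on made-up data with known answers. The regions named are all regions within 20 kb of the 5 genes, and the other genes and motifs come from lists. The members and lists were chosen with earlier results of these data known. Overlap, joining distance, q value, list size, flank and the measure were varied.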

Additional observations from a re-analysis of the deposited data

How the results depend on the processing

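No paired analysis was possible because each group has a single list and no values per library, so that leaving out a replicate could not be done either. Of 104 recomputed values, 80 stayed within 1.5 times the main count or ratio, or within the counting error of the mean log2 difference over the shared regions, 22 moved and 2 changed sign by more than that error (smaller changes of sign are counted among the 80). With peaks at or above the median q value, the regions per list became 5 and 1 for B6 males and females and 3 and 0 for CAST males and females, those in both male lists and neither female list became 2 of 5 (20.2% of all regions), and those in all 4 lists became 0; a CAST width ratio and CAST sex and female strain differences could not then be given. With lists of equal size, male B6 had 9 and male CAST 7 regions, the male pattern had 2 and the CAST width ratio was 3.06. With 5-kb flanks, male B6 had 7, female B6 3 and male CAST 8 regions, the male pattern had 2 and the CAST width ratio was 2.87. Fewer peaks or a shorter flank leave fewer regions by construction. A single region in a female list and no male list, where the main count was 0, appeared with an overlap of 50% of both peaks, with lists of equal size, with 50-kb flanks, and with a fold enrichment floor of 2.24, the last chosen after seeing the data. The male-to-female ratio of region counts, 2.80 in B6 and 4.33 in CAST, fell to 1.8 and 2.33 with lists of equal size and to 2.33 and 2.67 with 5-kb flanks, and was 5 in B6 with the stricter q value. It was above the ratio of all regions (1.01 to 2.03 over all settings) in each setting that gave one. The median B6 sex difference over 5 regions, 0.09, was -0.15 with pileup over the genome-wide background and 0.49 without centring, against a counting error of 0.23, so its direction is not fixed. The median male strain difference over 11 regions, -0.01, was -0.19 with the stricter q value, -0.16 with lists of equal size and 0.16 with −log10 q as the measure, against a counting error of 0.15. The cause was not tested.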
